A study of Mus musculus with 16 samples.

Results

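The genes described here are 9 mouse genes of the plasma cell and of the route by which secreted antibody leaves the lung: Jchain, Mzb1, Derl3, Irf4, Prdm1, Xbp1, Tnfrsf17, Sdc1 and Pigr. They were taken by symbol from the 19938 genes measured on 16 Affymetrix arrays of total lung RNA, and all 9 had 1 probe set of their own, shared with no other gene. Arrays came from C57BL/6 mice, aged 10 to 12 weeks by the labels, given crystalline silica (CS) through the trachea, with phosphate-buffered saline (PBS) for the controls. The series asked how silica acts on the lung and on lungs bearing the KRasLA1 tumor allele, and what the leukotriene B4 receptor BLT1 contributes.

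At day 60 the groups were BLT1-/-KRasLA1 CS and BLT1+/+KRasLA1 CS, with 3 lungs each, and BLT1-/-KRasLA1 PBS and BLT1+/+KRasLA1 PBS, each 1 array of RNA pooled from 3 mice. At day 2 they were BLT1-/- CS and BLT1+/+ CS, with 3 lungs each, and BLT1-/- PBS and BLT1+/+ PBS, again 1 pool of 3 mice each. All day 60 mice carried KRasLA1, a latent allele that recombines spontaneously in scattered cells and gives lung tumors, and no day 2 mouse did. Day and KRasLA1 therefore cannot be told apart. The CS lungs are called biological replicates in the labels, but animals are not numbered: p-values here speak of the spread among these samples, some of which may be technical.

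Plasma cells are the end stage of the B cell lineage and secrete antibody. Irf4 and Prdm1 (Blimp-1) set up that state, Xbp1 enlarges the endoplasmic reticulum, and Mzb1 and Derl3 work inside it on antibody assembly and on clearance of misfolded protein. Jchain joins immunoglobulin A into dimers and immunoglobulin M into pentamers, and Pigr, the polymeric immunoglobulin receptor of epithelial cells, binds those polymers and carries them into the airway lumen.

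Promoter windows show what the genes do and do not share in sequence near the transcription start. Windows from RefSeq (GRCm38.p6), from 250 bases before the start to 50 after it, were used for 8 of the 9 genes. Mzb1 was left out of the search. Of the motifs searched on both strands, the pentamer CCACG, the core bound by XBP1 and ATF6, was in 4 of the 8 windows (Derl3, Irf4, Prdm1 and Sdc1), against 32.8% of all 32851 windows. The full endoplasmic reticulum stress response element, in which CCAAT and CCACG are set a fixed distance apart, was in 1 of the 8, that of Derl3, against 0.119% of all windows. GAAAGTGA, a Blimp-1 motif, was in the Irf4 window, against 1.47% of all windows. The octamer ATGCAAAT (1.74% of all windows), the unfolded protein response motif TGACGTGG (0.676%) and the composite motif of PU.1 and IRF4 (2.72%) were in none of the 8. The hexamer CACGTG, an E-box added to the search after the windows had been seen, was in the windows of Pigr and Derl3 and in 7.15% of all windows, and in Derl3 it overlaps a CCACG. The windows of Derl3, Irf4, Pigr and Jchain follow, 5′ to 3′ on the strand of each gene. They belong to the gene whose window alone of the 8 held the complete stress element, the one that alone held the Blimp-1 motif, the transport receptor, and the gene with the largest response, which held none of these motifs. Capitals mark the stress response element in Derl3, from 156 to 138 bases before the start and on the opposite strand. In Irf4 they mark the Blimp-1 motif, also on the opposite strand and lying across the start, and in Pigr the E-box from 71 to 66 bases before the start. A match is a run of letters and was not tested as a binding site.
Derl3, chr10:75893148-75893447, plus strand: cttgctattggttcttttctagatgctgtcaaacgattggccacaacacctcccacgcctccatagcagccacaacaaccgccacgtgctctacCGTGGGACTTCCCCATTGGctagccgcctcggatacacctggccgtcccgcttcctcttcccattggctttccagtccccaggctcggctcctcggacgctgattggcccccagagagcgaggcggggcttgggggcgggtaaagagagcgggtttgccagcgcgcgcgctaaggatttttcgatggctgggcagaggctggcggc
Irf4, chr13:30748983-30749282, plus strand: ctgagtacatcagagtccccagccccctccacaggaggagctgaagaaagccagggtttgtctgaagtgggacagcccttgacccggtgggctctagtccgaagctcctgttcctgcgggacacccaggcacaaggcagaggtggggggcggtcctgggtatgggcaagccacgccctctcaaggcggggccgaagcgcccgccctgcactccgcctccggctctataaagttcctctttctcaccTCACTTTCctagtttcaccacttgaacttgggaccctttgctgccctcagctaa
Pigr, chr1:130826434-130826733, plus strand: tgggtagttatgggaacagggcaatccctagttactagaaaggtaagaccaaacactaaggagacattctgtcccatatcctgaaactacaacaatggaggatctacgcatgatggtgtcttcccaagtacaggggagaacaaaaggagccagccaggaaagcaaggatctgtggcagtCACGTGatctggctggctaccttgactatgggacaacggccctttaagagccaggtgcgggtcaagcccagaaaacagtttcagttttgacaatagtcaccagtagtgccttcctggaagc
Jchain, chr5:88527848-88528147, minus strand: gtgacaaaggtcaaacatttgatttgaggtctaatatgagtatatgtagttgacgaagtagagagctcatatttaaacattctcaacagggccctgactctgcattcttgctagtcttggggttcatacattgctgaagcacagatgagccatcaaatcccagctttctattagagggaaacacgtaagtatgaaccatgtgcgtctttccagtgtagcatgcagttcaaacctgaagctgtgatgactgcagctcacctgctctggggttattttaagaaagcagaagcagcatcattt

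All levels below are deposited log2 values, and differences are log2 differences with their standard error after the ± sign. Array medians lay between 8.25 and 8.34. The lung markers Sftpc, of type II cells, and Scgb1a1, of club cells, were between 14.24 and 14.47 on every array. Ltb4r1, the gene of BLT1, lay between 7.22 and 7.63 on all arrays, near the dim end of the scale; the sources used here do not say where the deletion lies, so this does not check the labels. The Y-linked gene Eif2s3y was high in BLT1+/+KRasLA1 CS replicate 2 (10.09), in the BLT1-/-KRasLA1 PBS pool (9.04) and in the BLT1+/+KRasLA1 PBS pool (9.68), and elsewhere it ranged from 4.27 to 4.74. Both day 60 pools therefore held RNA of male mice, while 5 of the 6 day 60 CS lungs showed no such signal. Xist, an RNA of female cells, was high in the BLT1-/-KRasLA1 PBS pool (12.16) and the BLT1+/+KRasLA1 PBS pool (12.32) too. In BLT1+/+KRasLA1 CS replicate 2 it was 6.61. The part of sex in the day 60 results was not tested. Mean day 60 responses without replicate 2 are given for the genes that rose and for the immunoglobulin segments. Those fits set only lungs without Y-linked signal against pools with it, so they cannot separate silica from sex.

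At day 60 silica-exposed KRasLA1 lungs carried more RNA of 6 of the 9 genes than the PBS pools, averaged over both BLT1 genotypes. Jchain rose most, 7.08-fold, followed by Pigr (2.96-fold), Mzb1 (2.39-fold), Irf4 (1.96-fold), Derl3 (1.56-fold) and Tnfrsf17 (1.5-fold). Among all 19938 genes, 3.35% were higher and 0.677% lower in this comparison. An unadjusted p under 0.05 was found for 6 of the 9 genes and for 2804 of all genes. The transcription factors Xbp1 and Prdm1 and the surface proteoglycan Sdc1, a common plasma cell marker, did not pass the test. The median difference of the 9 genes was 0.64, against -0.03 over all genes. In bulk RNA a larger number of cells of a type and more RNA per cell cannot be told apart.

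Jchain, the joining chain, stood at 12.07, 12.89 and 12.41 in BLT1-/-KRasLA1 CS lungs and at 12.64, 12.91 and 12.24 in BLT1+/+KRasLA1 CS lungs, against 9.76 in the BLT1-/-KRasLA1 PBS pool and 9.64 in the BLT1+/+KRasLA1 PBS pool. Every CS lung was at least 2.3 above its own pool, and the lungs of both genotypes were interleaved. The mean silica response was 2.82 ± 0.21 (limma, adjusted p = 8.75e-06), the 11th largest rise of all genes measured. Without BLT1+/+KRasLA1 CS replicate 2 it was 2.75 (adjusted p = 1.75e-05).

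Mzb1, an endoplasmic reticulum chaperone of antibody-secreting cells, had levels of 9.36, 9.99 and 9.64 in BLT1-/-KRasLA1 CS lungs and of 9.94, 10.09 and 9.62 in BLT1+/+KRasLA1 CS lungs, against 8.67 in the BLT1-/-KRasLA1 and 8.36 in the BLT1+/+KRasLA1 PBS pool. All 6 lungs were above both pools, and the response was 1.26 ± 0.14 (adjusted p = 0.000317). For Derl3, which helps move misfolded protein out of the endoplasmic reticulum and whose window holds the stress element shown above, BLT1-/-KRasLA1 CS lungs had 8.84, 9.15 and 8.98 and BLT1+/+KRasLA1 CS lungs 9.19, 9.16 and 8.85, against 8.47 in the BLT1-/-KRasLA1 and 8.30 in the BLT1+/+KRasLA1 PBS pool. The groups again did not overlap, by a smaller margin, and the response was 0.64 ± 0.11 (adjusted p = 0.00455). In all 6 CS lungs both genes, like Jchain, were above their own pool.

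Irf4, a transcription factor that directs activated B cells towards the plasma cell state and also acts in T cells and macrophages, was at 8.76, 8.78 and 9.17 in BLT1-/-KRasLA1 CS lungs and at 9.02, 9.04 and 8.71 in BLT1+/+KRasLA1 CS lungs, against 7.72 in the BLT1-/-KRasLA1 PBS pool and 8.17 in the BLT1+/+KRasLA1 PBS pool. The CS lungs were all higher, although the 2 pools differed from each other by nearly as much as the CS lungs did among themselves, and the response was 0.97 ± 0.18 (adjusted p = 0.00661). Prdm1, the Blimp-1 repressor that shuts down the B cell program, had 9.30, 9.27 and 9.21 in BLT1-/-KRasLA1 CS lungs and 8.99, 9.02 and 9.16 in BLT1+/+KRasLA1 CS lungs, against 8.94 in the BLT1-/-KRasLA1 and 9.22 in the BLT1+/+KRasLA1 PBS pool. Of the 6 lungs 2 were above both pools and the others lay between them, and the difference was 0.08 ± 0.11 (adjusted p = 0.846). Xbp1, the transcription factor of the unfolded protein response, was at 12.67, 12.76 and 12.54 in BLT1-/-KRasLA1 CS lungs and at 12.72, 12.67 and 12.68 in BLT1+/+KRasLA1 CS lungs, against 12.64 in the BLT1-/-KRasLA1 and 12.50 in the BLT1+/+KRasLA1 PBS pool. Its groups overlapped, and it differed by 0.10 ± 0.08 (adjusted p = 0.684). The probe set reads Xbp1 RNA as a whole and cannot tell its spliced form, the active one, from the unspliced one.

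Surface proteins of plasma cells divided in the same way. Tnfrsf17 (BCMA), the receptor for the survival factors APRIL and BAFF on plasma cells, had 7.65, 8.15 and 8.0 in BLT1-/-KRasLA1 CS lungs and 7.84, 8.02 and 7.88 in BLT1+/+KRasLA1 CS lungs, against 7.41 in the BLT1-/-KRasLA1 and 7.27 in the BLT1+/+KRasLA1 PBS pool. Every lung was above both pools, in a dim range where the authors' normalization draws values together, and the response was 0.58 ± 0.13 (adjusted p = 0.0192). Sdc1 (CD138), which airway and alveolar epithelium also makes, had 11.52, 11.71 and 11.59 in BLT1-/-KRasLA1 CS lungs and 11.75, 12.00 and 11.65 in BLT1+/+KRasLA1 CS lungs, against 11.78 in the BLT1-/-KRasLA1 and 11.74 in the BLT1+/+KRasLA1 PBS pool. Here 4 of the 6 lungs were below both pools and 1 was above both, and the difference was -0.06 ± 0.10 (adjusted p = 0.876).

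Pigr, the epithelial receptor that carries polymeric antibody into the lumen, was at 11.72, 12.03 and 12.05 in BLT1-/-KRasLA1 CS lungs and at 12.07, 12.01 and 11.91 in BLT1+/+KRasLA1 CS lungs, against 10.20 in the BLT1-/-KRasLA1 PBS pool and 10.60 in the BLT1+/+KRasLA1 PBS pool. The 6 lungs lay within 0.35 of each other and at least 1.31 above their own pool. Its response of 1.57 ± 0.11 (adjusted p = 8.75e-06) was the 61st largest rise among all genes. Without BLT1+/+KRasLA1 CS replicate 2 it was 1.56. Without that lung the others were 1.21 for Mzb1 (adjusted p = 0.000673), 0.94 for Irf4 (adjusted p = 0.0157), 0.62 for Derl3 (adjusted p = 0.0116) and 0.56 for Tnfrsf17 (adjusted p = 0.0425), so that all 6 genes that rose kept an adjusted p under 0.05. Fits with a PBS pool left out used the day 60 arrays alone, so fewer lungs entered their estimate of spread. Their values are no longer means but the response of the genotype that kept its pool. With only 1 PBS pool in the fit, Jchain and Pigr still passed whichever pool was left out, while Derl3 (0.51, adjusted p = 0.246, and 0.77, adjusted p = 0.116) and Tnfrsf17 (0.52, adjusted p = 0.343, and 0.65, adjusted p = 0.212) passed with neither. Mzb1 did not pass without the BLT1+/+KRasLA1 pool (1.00, adjusted p = 0.101), nor did Irf4 without the BLT1-/-KRasLA1 pool (0.75, adjusted p = 0.153).

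**Figure D1:**
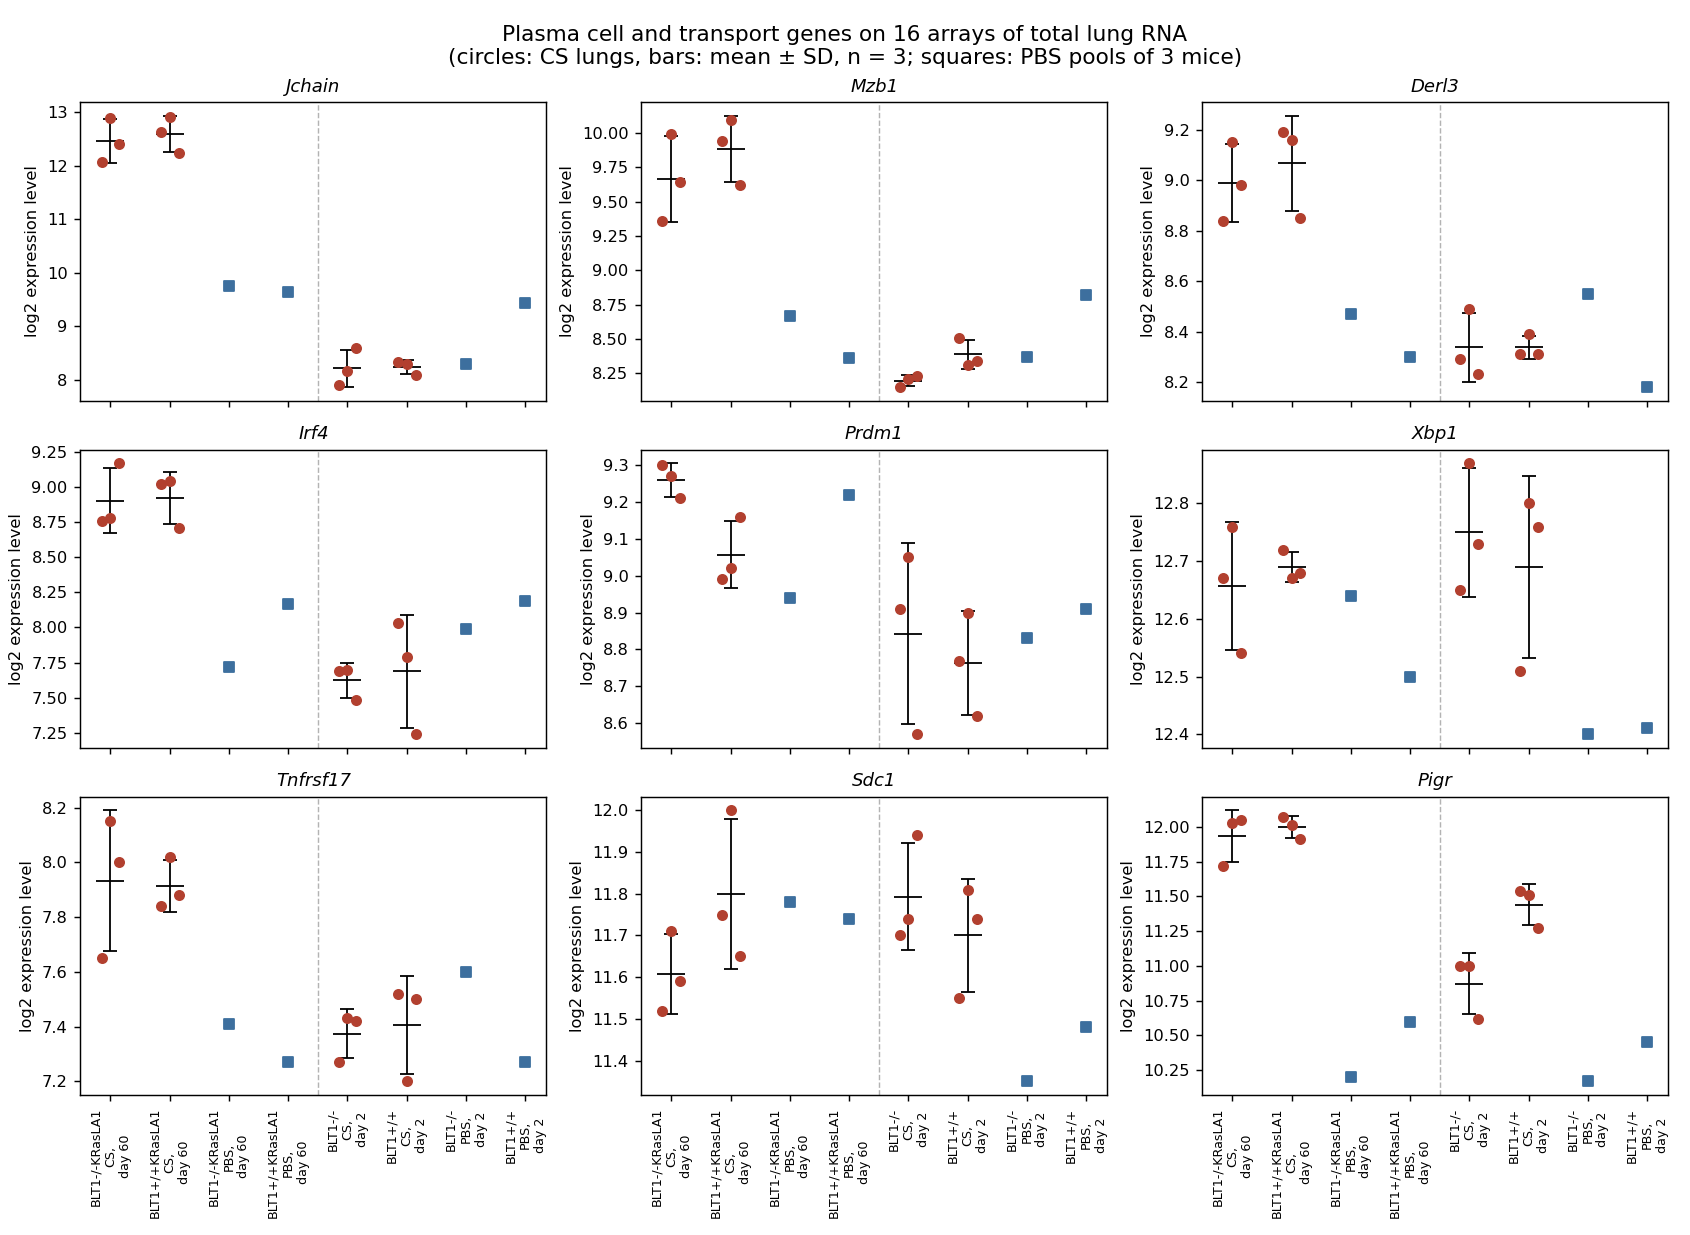
Log2 expression level of each of the 9 genes on every array (vertical axis, a separate scale for each gene), by group. Circles are single CS lungs with the group mean and SD (n = 3) and squares are PBS pools of 3 mice; for Jchain the 6 day 60 CS lungs lie between 12.07 and 12.91, above all other arrays, and for Xbp1, Prdm1 and Sdc1 the day 60 groups overlap.

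Jchain, Pigr and Mzb1 passed the test at day 60 in each BLT1 genotype taken alone. In BLT1-/-KRasLA1 lungs 4 of the 9 genes were higher after silica, against 1.10% of all genes: Jchain (2.69 ± 0.30, adjusted p = 0.000724), Pigr (1.74 ± 0.16, adjusted p = 0.000161), Mzb1 (1.00 ± 0.21, adjusted p = 0.0341) and Irf4 (1.19 ± 0.25, adjusted p = 0.0365). In BLT1+/+KRasLA1 lungs 4 were higher, against 0.687% of all genes: Jchain (2.96 ± 0.30, adjusted p = 0.00052), Pigr (1.40 ± 0.16, adjusted p = 0.0018), Mzb1 (1.52 ± 0.21, adjusted p = 0.00455) and Derl3 (0.77 ± 0.16, adjusted p = 0.0406). The calls of Mzb1 and Irf4 in BLT1-/-KRasLA1 lungs and of Derl3 in BLT1+/+KRasLA1 lungs were marginal. Mzb1 lost its call without BLT1-/-KRasLA1 CS replicate 2 (0.83, adjusted p = 0.0677) or 3 (1.01, adjusted p = 0.101), and without BLT1-/- CS replicate 1 or 2 or BLT1+/+ CS replicate 2 of day 2, which enter the estimate of spread alone (adjusted p = 0.0526, 0.0515 and 0.0533). Irf4 lost its call without the same 5 lungs (adjusted p between 0.0544 and 0.116) and without BLT1+/+KRasLA1 CS replicate 1 (adjusted p = 0.0509). Derl3 lost it without BLT1+/+KRasLA1 CS replicate 1 (0.70, adjusted p = 0.13) or 2 (0.72, adjusted p = 0.125), and without BLT1-/-KRasLA1 CS replicate 3, BLT1-/- CS replicate 1 or BLT1+/+ CS replicates 2 or 3 (adjusted p between 0.0507 and 0.0674). Set against the pool of the other genotype, Irf4 had 0.73 in BLT1-/-KRasLA1 lungs (adjusted p = 0.309) and 1.21 in BLT1+/+KRasLA1 lungs (adjusted p = 0.0314).

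Between BLT1-/-KRasLA1 and BLT1+/+KRasLA1 lungs after silica at day 60, no gene of the set passed the test. The differences ran from -0.22 for Mzb1 to 0.20 for Prdm1, 0 of 9 passed limma's test (lowest adjusted p = 0.967) and 0 had an unadjusted p under 0.05, against 0.0401% of all genes called. Jchain averaged 12.46 ± 0.41 in BLT1-/-KRasLA1 CS lungs and 12.60 ± 0.34 in BLT1+/+KRasLA1 CS lungs (SD, n = 3 each), a difference of -0.14 ± 0.21. For the BLT1 by silica interaction, which sets each genotype's response against its own pool, 0 of 9 genes and 0% of all genes passed in limma, 0 of the 9 had an unadjusted p under 0.05, and values ran from -0.53 ± 0.29 for Mzb1 to 0.48 ± 0.23 for Prdm1. A miss of the threshold with 3 lungs a group does not show that the genotypes respond alike.

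Immunoglobulin gene segments with a probe set of their own numbered 11. At day 60, 8 of them rose and 0 fell in limma's test, against 3.35% of all genes higher and 0.677% lower, all 11 had an unadjusted p under 0.05, and their median difference was 2.47. Igha, the constant region of the immunoglobulin A heavy chain, was at 12.97, 13.34 and 12.17 in BLT1-/-KRasLA1 CS lungs and at 12.30, 12.84 and 10.79 in BLT1+/+KRasLA1 CS lungs, against 10.22 in the BLT1-/-KRasLA1 and 9.61 in the BLT1+/+KRasLA1 PBS pool. All 6 lungs were above the pools, and the response was 2.49 ± 0.53 (adjusted p = 0.016). Ighm, the constant region of immunoglobulin M, had 10.09, 11.57 and 9.95 in BLT1-/-KRasLA1 CS lungs and 11.84, 11.80 and 9.78 in BLT1+/+KRasLA1 CS lungs, against 9.13 in the BLT1-/-KRasLA1 and 8.89 in the BLT1+/+KRasLA1 PBS pool. These did not overlap either, but the lungs spread widely and the difference of 1.83 ± 0.49 did not pass (adjusted p = 0.0547). Ighg3, of immunoglobulin G3, overlapped between the groups and differed by 1.37 ± 0.44 (adjusted p = 0.121).

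The 8 other segments were kappa light chain variable segments, of which 7 rose. Igkv10-96 had 11.91, 12.58 and 12.05 in BLT1-/-KRasLA1 CS lungs and 12.39, 12.60 and 10.91 in BLT1+/+KRasLA1 CS lungs, against 9.17 in the BLT1-/-KRasLA1 and 9.27 in the BLT1+/+KRasLA1 PBS pool, a response of 2.85 ± 0.32 (adjusted p = 0.000294). Igkv4-91 had 9.31, 10.81 and 11.72 in BLT1-/-KRasLA1 CS lungs and 10.71, 13.20 and 10.51 in BLT1+/+KRasLA1 CS lungs, against 7.16 in the BLT1-/-KRasLA1 and 7.74 in the BLT1+/+KRasLA1 PBS pool (3.59 ± 0.69, adjusted p = 0.00914). Lungs differed by more in single segments than in Jchain, a spread that was described and not tested. Over the 6 CS lungs Jchain spanned 0.84 and Mzb1 0.73, whereas Igkv4-91 spanned 3.89, Igkv8-30 spanned 3.13 and Igha spanned 2.55. BLT1+/+KRasLA1 CS replicate 3 was the lowest of the 6 lungs for Igha, Ighm, Ighg3 and Igkv10-96. The count of 8 was 6 to 11 with 1 lung left out. It was 11 without BLT1+/+KRasLA1 CS replicate 3, with Ighm, Ighg3 and Igkv19-93 added. Without BLT1+/+KRasLA1 CS replicate 2 it was 7, as Igkv9-120 lost its call (2.33, adjusted p = 0.0837), while Igha had 2.27 (adjusted p = 0.0268), Igkv10-96 had 2.69 (adjusted p = 0.000375) and Igkv4-91, highest in that lung, had 3.16 (adjusted p = 0.00657). Igkv9-120 also lost its call without BLT1+/+KRasLA1 CS replicate 1, BLT1-/-KRasLA1 CS replicates 1 or 2, BLT1-/- CS replicates 1 or 2 or BLT1+/+ CS replicate 2 (adjusted p between 0.0529 and 0.0894). Igkv6-20 lost it without BLT1+/+KRasLA1 CS replicate 1 (adjusted p = 0.0553) or BLT1-/-KRasLA1 CS replicate 2 (adjusted p = 0.0558). Some variable segments closely resemble one another, so a probe set may read RNA of several.

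**Figure D2:**
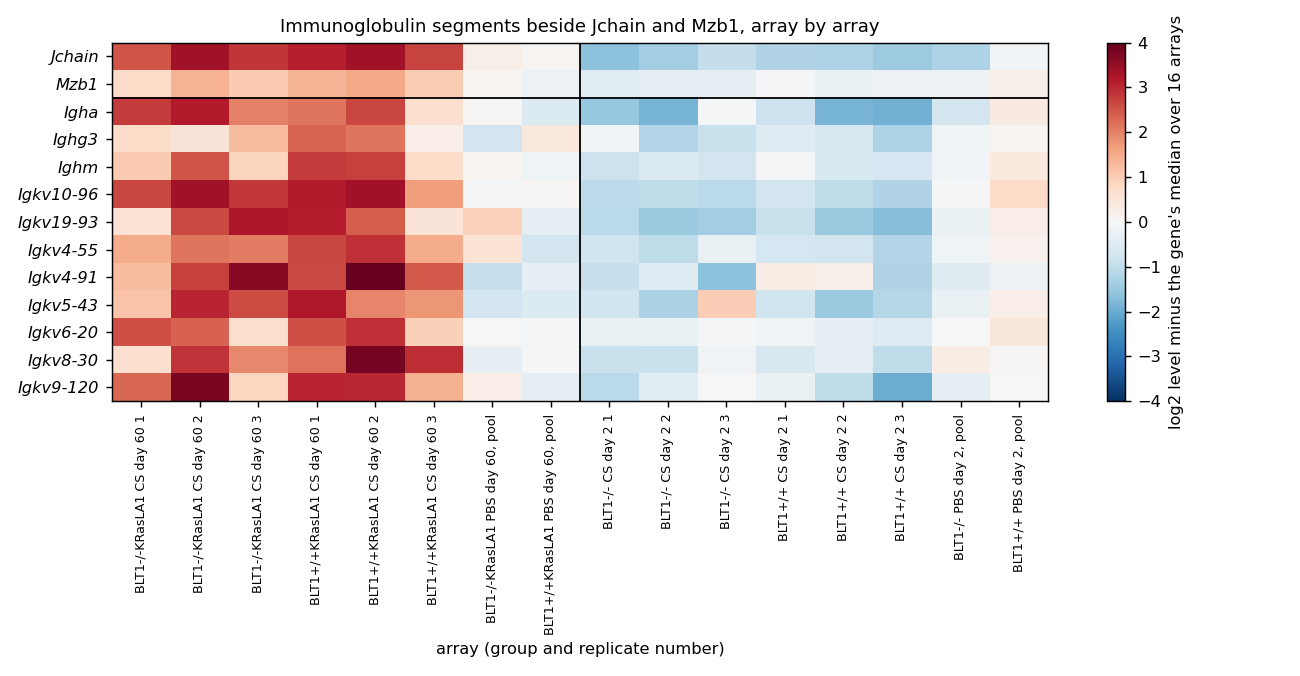
Log2 level minus the gene's median over 16 arrays (colour) for Jchain, Mzb1 and 11 immunoglobulin segments (vertical) on each array (horizontal), with day 60 left of the vertical line. The 6 day 60 CS lungs are red in every line, Jchain evenly and single segments unevenly, while the day 2 CS lungs are mostly blue.

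Day 2 gave another pattern. Pigr (1.80-fold), Sdc1 (1.26-fold) and Xbp1 (1.24-fold) rose in mean response, while none of the other 6 genes passed limma's test. That is 3 of 9 genes, against 8.03% of all genes higher and 4.37% lower. An unadjusted p under 0.05 was found for 5 of the 9 and for 4949 of all 19938 genes. The median difference of the 9 genes was -0.05, against -0.02 over all genes.

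Pigr was at 11.00, 11.00 and 10.62 in BLT1-/- CS lungs and at 11.54, 11.51 and 11.27 in BLT1+/+ CS lungs, against 10.17 in the BLT1-/- PBS pool and 10.45 in the BLT1+/+ PBS pool. The lungs did not overlap with the pools, and its response was 0.85 ± 0.11 (adjusted p = 0.000667). With all 16 arrays Pigr also passed in each genotype alone, as 1 of 9 genes in both. The response was 0.70 ± 0.16 in BLT1-/- lungs (adjusted p = 0.0234), against 5.19% of all genes. In BLT1+/+ lungs it was 0.99 ± 0.16 (adjusted p = 0.0129), against 0.853% of all genes. With the 8 arrays of day 2 alone the BLT1-/- response missed the threshold (0.70, adjusted p = 0.0615). Leaving out the BLT1+/+ pool as well returns that same value, 0.70, since only BLT1-/- lungs then keep a pool. Against the BLT1+/+ pool, BLT1-/- CS lungs had 0.42 (adjusted p = 0.151). The calls were also lost without replicate 2 of the same group (0.64, adjusted p = 0.0562, in BLT1-/- lungs and 0.95, adjusted p = 0.051, in BLT1+/+ lungs).

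Xbp1 had 12.65, 12.87 and 12.73 in BLT1-/- CS lungs and 12.51, 12.80 and 12.76 in BLT1+/+ CS lungs, against 12.40 in the BLT1-/- and 12.41 in the BLT1+/+ PBS pool. Sdc1 had 11.70, 11.74 and 11.94 in BLT1-/- CS lungs and 11.55, 11.81 and 11.74 in BLT1+/+ CS lungs, against 11.35 in the BLT1-/- and 11.48 in the BLT1+/+ PBS pool. All 6 lungs were above both pools for both genes, by 0.31 ± 0.08 for Xbp1 (adjusted p = 0.023) and by 0.34 ± 0.10 for Sdc1 (adjusted p = 0.0396). With the 8 arrays of day 2 alone and both pools kept, neither passed (Xbp1 0.31, adjusted p = 0.0586, and Sdc1 0.34, adjusted p = 0.053). Leaving out the BLT1+/+ pool as well gave 0.35 for Xbp1 and 0.45 for Sdc1. Leaving out the BLT1-/- pool gave 0.28 and 0.23. These are the responses of the genotype that kept its pool, so a lost call there cannot be assigned to the missing pool. Sdc1 also lost its call without BLT1-/- CS replicate 2 (adjusted p = 0.05, just over the threshold before rounding) or 3 (0.0636), BLT1+/+ CS replicate 2 (0.0794) or 3 (0.0711), BLT1-/-KRasLA1 CS replicate 3 (0.0547) or BLT1+/+KRasLA1 CS replicate 1 (0.0518). Same-numbered CS lungs of day 2 deviated together, a pairing read from these same data. With the replicate number as a block, Xbp1 (0.35, adjusted p = 0.0227) and Sdc1 (0.45, adjusted p = 0.0165) passed in BLT1-/- lungs. Without the block they did not (adjusted p = 0.0886 and 0.071).

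The day 2 response of Jchain depended on the PBS pool it was set against. Jchain was at 7.90, 8.16 and 8.59 in BLT1-/- CS lungs and at 8.34, 8.29 and 8.10 in BLT1+/+ CS lungs, against 8.30 in the BLT1-/- PBS pool and 9.44 in the BLT1+/+ PBS pool. The CS lungs of the 2 genotypes overlapped and the 2 pools differed by more than any 2 of these lungs. The response was -0.09 ± 0.30 in BLT1-/- lungs (adjusted p = 0.879) and -1.19 ± 0.30 in BLT1+/+ lungs (adjusted p = 0.0766). With the replicate block the BLT1+/+ value passed (-1.19, adjusted p = 0.024), as did the mean response of -0.64 ± 0.21 (adjusted p = 0.0272, against 0.0668 without the block). The mean response also passed without BLT1-/- CS replicate 3 (-0.73, adjusted p = 0.0318) and without BLT1-/-KRasLA1 CS replicate 1 or 2 (adjusted p = 0.0464 and 0.0427). Against the BLT1+/+ pool, BLT1-/- CS lungs had a value of -1.22 (adjusted p = 0.0278). Of the 11 immunoglobulin segments at day 2, 1 fell, Igkv10-96 (-1.37 ± 0.32, adjusted p = 0.015), and 0 rose in limma's test (3 with an unadjusted p under 0.05), with a median of -0.75. Of all genes, 4.37% were lower and 8.03% higher, and 4949 of 19938 had an unadjusted p under 0.05. The 3 segments with such a p were close to that share.

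The other 5 genes did not pass in the day 2 mean response. Mzb1 was between 8.15 and 8.51 in the 6 CS lungs, against 8.37 in the BLT1-/- and 8.82 in the BLT1+/+ PBS pool, with all 6 lungs below their own pool and a difference of -0.30 ± 0.14 (adjusted p = 0.214). Irf4 was between 7.24 and 8.03, against 7.99 in the BLT1-/- and 8.19 in the BLT1+/+ PBS pool, with all 6 lungs below their own pool, by 0.15 to 0.94 (-0.43 ± 0.18, adjusted p = 0.14; -0.52 and adjusted p = 0.0454 without BLT1+/+ CS replicate 1). Prdm1 was between 8.57 and 9.05, against 8.83 in the BLT1-/- and 8.91 in the BLT1+/+ PBS pool, Tnfrsf17 between 7.20 and 7.52, against 7.60 in the BLT1-/- and 7.27 in the BLT1+/+ PBS pool, and Derl3 between 8.23 and 8.49, against 8.55 in the BLT1-/- and 8.18 in the BLT1+/+ PBS pool. Their differences were -0.06, -0.05 and -0.03, each with overlapping groups.

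Between BLT1-/- and BLT1+/+ lungs after silica at day 2, 0 of 9 genes passed limma's test, against 0.0201% of all genes called. The unadjusted p was under 0.05 for 1735 of all 19938 genes and for 1 of the 9, Pigr. Pigr averaged 10.87 ± 0.22 in BLT1-/- CS lungs and 11.44 ± 0.15 in BLT1+/+ CS lungs (SD, n = 3 each). The difference was -0.57 ± 0.11 (adjusted p = 0.163). Its 3 BLT1-/- lungs were all below the 3 BLT1+/+ lungs, and the BLT1-/- PBS pool was also the lower of the pools, at 10.17 against 10.45. The interaction was -0.28 ± 0.23 for Pigr and 1.10 ± 0.42 for Jchain (adjusted p = 0.82 for both). In the interaction 0 of 9 genes passed limma's test, and 0% of all genes were called. The unadjusted p was under 0.05 for 1 of the 9 and for 896 of all 19938 genes.

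**Figure D3:**
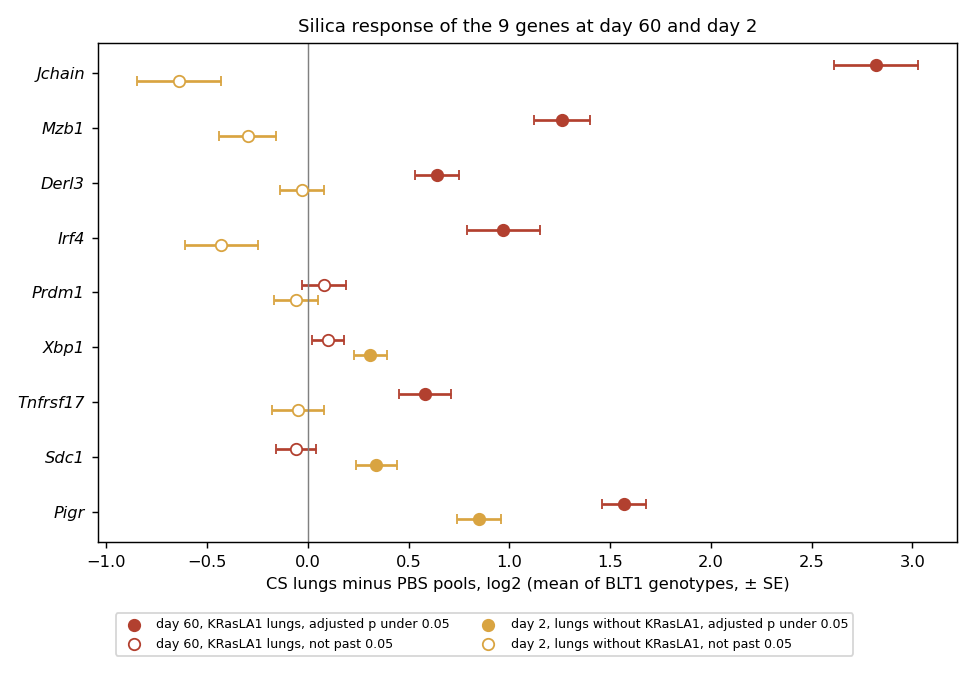
Mean silica response of each gene (CS lungs minus PBS pools, log2, horizontal, bars ± SE) at day 60 in KRasLA1 lungs and at day 2 in lungs without the allele, with filled points for an adjusted p under 0.05. Jchain stands at 2.82 at day 60 and -0.64 at day 2, and Pigr is positive at both days (1.57 and 0.85).

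The day 60 response was larger than the day 2 response for 5 of the 9 genes, against 1.70% of all genes larger and 0.657% smaller. The difference of responses was 3.46 ± 0.30 for Jchain (adjusted p = 0.000232), 1.56 ± 0.21 for Mzb1 (adjusted p = 0.00183), 1.40 ± 0.25 for Irf4 (adjusted p = 0.00953), 0.72 ± 0.16 for Pigr (adjusted p = 0.0356) and 0.67 ± 0.16 for Derl3 (adjusted p = 0.0407). Tnfrsf17 had 0.63 (adjusted p = 0.0987; 0.0232 without BLT1-/-KRasLA1 CS replicate 1), and Prdm1 0.14, Xbp1 -0.21 and Sdc1 -0.39 did not pass (adjusted p = 0.194 for Sdc1, and just under the threshold, 0.05 after rounding, with the replicate block). Marker genes of other cell classes passed in the same contrast: all 14 B cell markers were larger at day 60 (median 1.66), as were all 10 T cell markers (median 1.05), and 5 of the 11 immunoglobulin segments (median 3.17), while 3 of 10 epithelial markers were smaller. Their part in the difference was not tested. Jchain, Mzb1 and Irf4 kept their calls whichever lung was left out. Pigr lost its call without any of 6 lungs, BLT1-/-KRasLA1 CS replicates 2 and 3, BLT1+/+KRasLA1 CS replicates 1 and 2 and BLT1+/+ CS replicates 2 and 3, with values from 0.68 to 0.74 (adjusted p between 0.0503 and 0.0641). Derl3 lost it without those same 6 lungs and without BLT1-/- CS replicate 1 or 3, with values from 0.63 to 0.68 (adjusted p between 0.0552 and 0.0707).

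In PBS pools, set day 60 against day 2, 0 of 9 genes passed limma's test, against 0.396% of all genes called. The unadjusted p was under 0.05 for 2 of the 9 and for 2127 of all 19938 genes. Jchain was 0.83 ± 0.26 higher in value in the day 60 pools (9.70 against 8.87, adjusted p = 0.221) and Sdc1 0.35 higher (11.76 against 11.41, adjusted p = 0.281). For Pigr the pools had means of 10.40 at day 60 and 10.31 at day 2. Level by level, the 6 day 60 CS lungs were the highest arrays for Jchain, Mzb1, Irf4, Tnfrsf17, Derl3 and Pigr. For Jchain the pools came next, with the BLT1+/+ day 2 pool at 9.44 beside the day 60 pools, then the BLT1-/- day 2 pool at 8.30 within the range of the day 2 CS lungs. For Pigr the day 2 CS lungs came next, BLT1+/+ above BLT1-/-, and the 4 pools were lowest, although the lowest of those lungs, at 10.62, hardly differed from the BLT1+/+KRasLA1 pool at 10.60.

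A list of 15 further plasma cell genes, of which 14 were measured (Cd38 was not), gave 4 that rose at day 60 and 0 that fell in limma's test (8 with an unadjusted p under 0.05), with a median of 0.22. Of all genes, 3.35% were higher and 0.677% lower. Slamf7, a surface receptor of plasma cells that other lymphocytes and myeloid cells also carry, ranged from 9.67 to 10.55 in CS lungs, against 8.45 to 8.70 in the pools (1.64 ± 0.19, adjusted p = 0.000288). Pou2af1, the B cell coactivator OBF-1, ranged from 9.07 to 9.66, against 8.54 to 8.70 in the pools (0.81 ± 0.17, adjusted p = 0.0149). Edem1 (0.55), which marks misfolded glycoproteins for degradation, and Tnfrsf13b (0.47), the receptor TACI, also rose. Fkbp11, an endoplasmic reticulum prolyl isomerase of secretory cells, had 0.01 and Txndc5, a disulfide isomerase, 0.19, and neither passed. At day 2, 3 of the 14 rose (Prdx4 0.51, Ell2 0.46 and Edem1 0.33), against 8.03% of all genes. Another 3 fell (Glcci1 -0.59, Trp53inp1 -0.46 and Pou2af1 -0.86), against 4.37% of all genes.

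Secretory pathway and unfolded protein response genes, 30 of 30 measured, are those that enlarge and service the endoplasmic reticulum. At day 2, 15 rose and 0 fell in limma's test (23 with an unadjusted p under 0.05), with a median of 0.27, against 8.03% of all genes higher. At day 60, 2 rose and 0 fell (8 with an unadjusted p under 0.05), with a median of 0.06, against 3.35% of all genes higher. Over all 19938 genes the unadjusted p was under 0.05 for 4949 at day 2 and for 2804 at day 60. Xbp1 had its call at day 2 as well. Manf, a secreted stress response protein, ranged from 10.71 to 10.97 in day 2 CS lungs, against 10.19 to 10.24 in the pools (0.62 ± 0.09, adjusted p = 0.0013), and was 10.21 to 10.53 in day 60 CS lungs, against 10.24 to 10.28 in the pools. Hspa5, the chaperone BiP, rose by 0.48 ± 0.10 at day 2 (adjusted p = 0.00556) and had 0.24 ± 0.10 at day 60 (adjusted p = 0.253). Sdf2l1, a BiP cofactor, rose at both days, by 0.90 ± 0.15 at day 2 and 0.72 ± 0.15 at day 60, and Pdia4 rose at day 60 by 0.32 ± 0.08 (adjusted p = 0.044). The difference between days was called for 2 of the 30, Ssr2 (-0.32) and Manf (-0.56), both smaller at day 60, and the median was -0.19. Among all genes 0.657% were smaller at day 60.

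**Figure D4:**
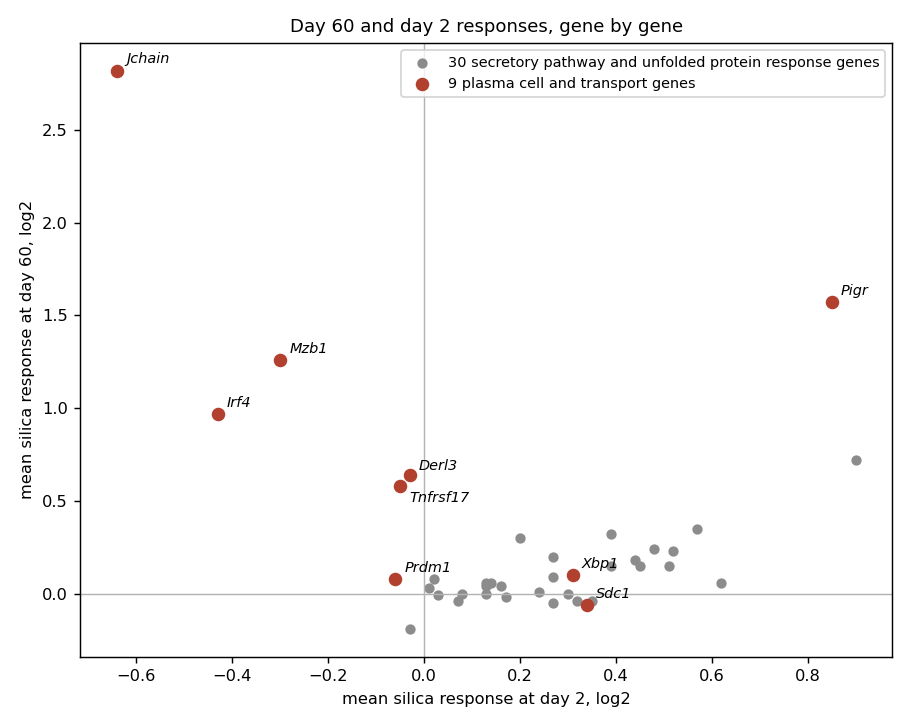
Mean silica response at day 2 (horizontal, log2) and at day 60 (vertical, log2) of the 9 genes in red and of 30 secretory pathway and unfolded protein response genes in grey. Jchain, Mzb1 and Irf4 lie high on the day 60 axis with negative day 2 values, whereas Xbp1 and Sdc1 lie among the grey points, which extend along the day 2 axis.

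B cell regulators that plasma cells repress, 9 of 10 measured, included 3 that rose at day 60 (Spib 0.96, Ciita 0.53 and Irf8 0.53) and 0 that fell in limma's test (4 with an unadjusted p under 0.05). At day 2, 6 of the 9 fell, among them Spib (-1.03), Pax5 (-0.72), the B cell identity factor, and Bach2 (-0.53), and 0 rose (7 with an unadjusted p under 0.05). Signals that help, attract or sustain B cells, 19 of 20 measured, gave 4 that rose and 0 that fell at day 60 (11 with an unadjusted p under 0.05) and 4 that rose and 3 that fell at day 2. For both lists the shares over all genes were 3.35% higher and 0.677% lower at day 60. At day 2 they were 8.03% higher and 4.37% lower. Over all 19938 genes the unadjusted p was under 0.05 for 2804 at day 60 and for 4949 at day 2. Cxcl13, the chemokine that draws B cells into follicles, rose at both days, by 1.10 ± 0.27 at day 60 (adjusted p = 0.0358) and 2.71 ± 0.27 at day 2 (adjusted p = 0.000117). Il6, a growth factor of plasma cells among its many roles, rose by 1.41 ± 0.27 at day 60 and by 3.73 ± 0.27 at day 2. Cxcr5, the receptor of Cxcl13, fell at day 2 (-1.14 ± 0.23, adjusted p = 0.00685).

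Airway secretory and mucosal defence genes, 15 of 16 measured, are the setting in which Pigr is made. At day 60, 2 rose and 1 fell, against 3.35% and 0.677% of all genes, and at day 2, 1 rose and 2 fell, against 8.03% and 4.37%, so the share that rose at day 2 was no higher than over all genes. At day 60 Slpi, a secreted antiprotease (0.98 ± 0.15, adjusted p = 0.00201), and the mucin Muc4 (0.63 ± 0.10, adjusted p = 0.00271) rose, and Scgb3a2, a secretoglobin of club cells, fell (-0.41 ± 0.08, adjusted p = 0.0137). At day 2 Muc4 rose (0.70), and Scgb3a2 (-0.67) and the club cell enzyme Cyp2f2 (-0.34) fell. The median of the list was -0.01 at day 60 and -0.11 at day 2, beside 1.57 and 0.85 for Pigr.

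Markers of several other cell classes also changed after silica, and their part in the results was not tested. Among all genes, 3.35% were higher and 0.677% lower at day 60, and 8.03% higher and 4.37% lower at day 2. Of the 19938 genes, 2804 had an unadjusted p under 0.05 at day 60 and 4949 at day 2. Of 14 B cell markers, 5 rose and 0 fell in limma's test at day 60 (median 0.61, 11 with an unadjusted p under 0.05), and 12 fell and 0 rose at day 2 (median -1.09, 13 with an unadjusted p under 0.05). Their mean level per array was 9.80 to 10.33 in day 60 CS lungs, against 9.30 to 9.40 in the day 60 pools, and 8.44 to 9.18 in day 2 CS lungs, against 9.73 to 9.88 in the day 2 pools. Neither range overlapped with its pools. Ms4a1 (CD20), which plasma cells lose, was 10.39 to 11.04 in day 60 CS lungs, against 9.93 to 9.96 in the pools. T cell markers gave 7 of 10 higher at day 60 and 6 of 10 lower at day 2, and monocyte and macrophage markers 7 of 10 and 3 of 10 higher. Human plasmacytoid dendritic cells also make Jchain, Mzb1 and Derl3. Of their 9 markers 4 rose at day 60, among them Ccr9 (0.82) and Irf7 (1.91), and Ly6d, which is on the B cell list too. Siglech, among their most specific markers, had 0.33 at day 60 and did not pass. The mean level of the list was 9.29 to 9.63 in day 60 CS lungs, against 8.97 to 9.06 in the pools.

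Epithelial markers, the class in which Pigr and most lung Sdc1 are made, gave 1 of 10 higher at day 60 (Ehf 0.36) with a median of -0.07, and 6 of 10 higher at day 2 with a median of 0.61, among them Cldn4 (1.22) and Krt8 (0.65). The shares of all genes that were higher were 3.35% at day 60 and 8.03% at day 2. Their mean level was 11.02 to 11.29 in day 60 CS lungs, against 11.12 to 11.14 in the pools, and 11.22 to 11.70 in day 2 CS lungs, against 10.90 to 11.03 in the pools. Pigr rose at day 60 in lungs whose mean epithelial marker level overlapped with that of the pools, and at day 2 in lungs where that mean was higher. Single markers, Epcam and Cdh1 among them, overlapped with the pools at day 2. A link between marker level and Pigr was not tested. For lymph node and aggregate stroma, 3 of 9 markers rose and 1 fell at day 60, against 3.35% and 0.677% of all genes. Ccl19 (0.90) and Fcer2a (1.35), which is on the B cell list too, were among those that rose. Glycam1 and Madcam1, of lymph node vessels, had -0.01 and -0.14.

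**Figure D5:**
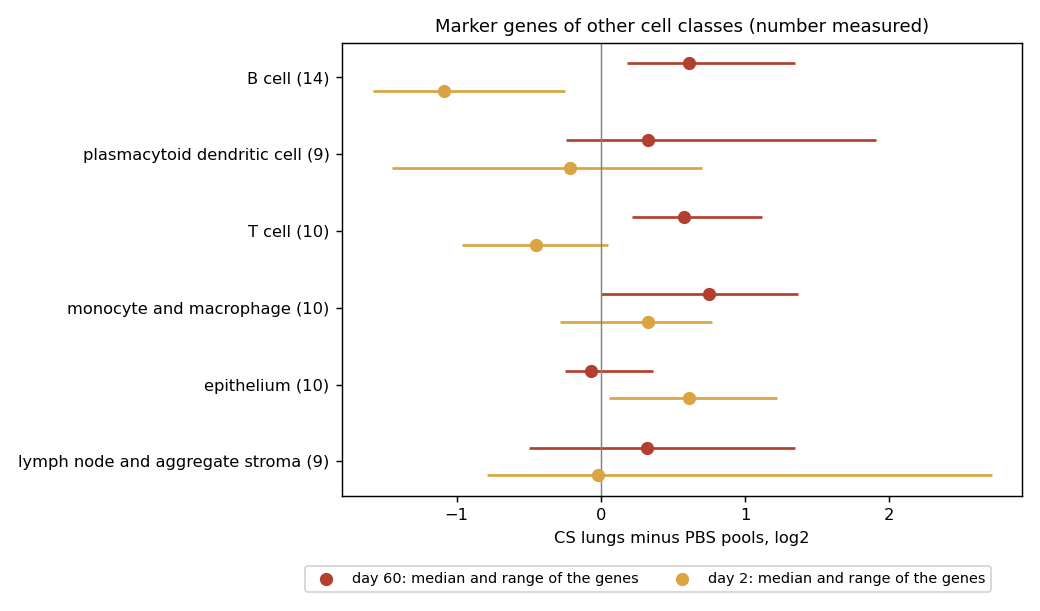
Median (point) and range (line) of the mean silica response, in log2, over the measured markers of 6 other cell classes, at day 60 and at day 2. The B cell and T cell medians are above 0 at day 60 (0.61 and 0.58) and below 0 at day 2 (-1.09 and -0.45), and the epithelial median is near 0 at day 60 (-0.07) and 0.61 at day 2.

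Correlations across the 16 arrays are given as a description, since the arrays share the groups. Jchain, Mzb1, Derl3, Irf4 and Tnfrsf17 varied together, with a correlation to Jchain of 0.97 for Mzb1, 0.92 for Irf4, 0.91 for Derl3 and 0.85 for Tnfrsf17. Xbp1 and Sdc1 correlated with each other (0.65) and hardly with Jchain (0.06 and 0.11). Pigr had correlations of 0.70 to 0.75 with each of Jchain, Mzb1, Irf4, Tnfrsf17 and Derl3, and Prdm1 had 0.69 with Jchain, 0.72 with Irf4 and 0.44 with Pigr. With group means removed, over the 12 CS lungs, Jchain kept a correlation of 0.86 with Mzb1, 0.63 with Tnfrsf17 and 0.58 with Derl3, but 0.18 with Irf4, and that with Sdc1 was 0.74. Irf4 then correlated with Pigr (0.73) and Prdm1 with Jchain at -0.42.

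The 5 genes most like each one over the 16 arrays follow. For Jchain they were Hvcn1 (0.98), Lipa (0.979), Cd83 (0.977), P2ry10b (0.977) and Mzb1 (0.973), and for Mzb1 they were Ly9 (0.977), Jchain, the kappa segments Igkv4-55 and Igkv10-96 (both 0.97) and Cd83 (0.964). Irf4 was most like Myo1g (0.979), Tspan32 (0.968), Cd72 (0.967), Blnk (0.966) and Lax1 (0.962). For Derl3 they were Cyba (0.959), Stra6l (0.958), B4galnt1, Cxcl9 (both 0.956) and Trem2 (0.95), and for Tnfrsf17 Csmd1 (0.935), Lcp1 (0.925), Cilp (0.922), Cxcl9 (0.914) and Derl3 (0.911). Xbp1 had Ralb (0.89), Eif6 (0.883), Yipf5 (0.873) and the secretory chaperones Pdia4 (0.885) and Hspa5 (0.874) nearest to it, and Sdc1 had Tmem147 (0.931), Mrpl32 (0.925), Ap1m2, Slirp (both 0.921) and Marveld3 (0.918). Nearest to Prdm1 were Cbx8 (0.889), Icosl (0.875), Xylt2 (0.86), Pnpla6 (0.857) and Hid1 (0.856). Pigr was most like Ly6i (0.984), Vnn3 (0.965), Vnn1 (0.959), Chil1 (0.947) and C1qb (0.946). All of these are Pearson correlations of log2 level over the same 16 arrays, whose groups they share.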

How the data were processed

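Total lung RNA of 16 samples was measured, 1 array each. The authors deposited log2 expression values per probe set, made with RMA and Partek 6.6 per the submitters' processing notes. No source used here gives the genome build or the sequence of steps. RMA gives all arrays 1 distribution and draws dim values together, so a change in total RNA is not seen and changes of dim genes are understated. Detection calls were not used.

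Of 35556 probe sets, 21789 carried 1 gene symbol in the platform annotation, 1621 several and 12146 none. Only those with 1 symbol were used, and for 999 genes with more than 1 probe set the brightest on average was taken, giving 19938 genes. The 2 closest arrays differed by an SD of 0.22 over probe sets, so no array was a copy of another.

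Means of the 8 groups were fitted with limma 3.58.1 in R 4.3.3 (lmFit, eBayes with trend), and every p-value and adjusted p is limma's, two-sided, with Benjamini-Hochberg adjustment over all genes in each of 12 comparisons and a threshold of 0.05. Only CS lungs supply the 8 residual degrees of freedom. PBS pools, which lack replicates, were taken to be as variable as a CS lung. Precision is limited by the number of arrays, with a median standard error of 0.14 for 1 genotype's response and 0.10 for mean responses. Responses at one day share their PBS pools. Same-numbered CS lungs deviated together at day 2 (correlations of 0.43, 0.20 and 0.34 between genotypes) and not at day 60 (0.09, 0.01 and 0.06). The main fit had no block for the replicate number. An alternative added such a block for the CS lungs of both days. Alternatives changed the probe set rule, normalization, filter, variance model, weights, block, control pool or lungs used. The fit was also tested on simulated data.

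The 9 genes and all lists were chosen with earlier results of these data known, and lists are described by counts and medians without a test. Named besides the 9 genes are up to 4 genes of each list with the smallest p in either mean response, list members discussed beside them, immunoglobulin segments with a probe set of their own, and the 5 genes with the highest correlation to each. Lists lacked 7 genes that had no probe set of their own. Promoter windows are from RefSeq GRCm38.p6, and the gene of KRasLA1 is not analysed here.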

Additional observations from a re-analysis of the deposited data

Results flagged for a closer look

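For 5 genes the silica response was larger in the KRasLA1 lungs of day 60 than in the day 2 lungs without that allele. This is by limma's test of the difference itself, in which 1.70% of all genes were larger at day 60 and 0.657% smaller. The day 60 minus day 2 value was 3.46 ± 0.30 for Jchain (adjusted p = 0.000232), 1.56 ± 0.21 for Mzb1 (adjusted p = 0.00183) and 1.40 ± 0.25 for Irf4 (adjusted p = 0.00953). It was 0.72 ± 0.16 for Pigr (adjusted p = 0.0356) and 0.67 ± 0.16 for Derl3 (adjusted p = 0.0407). Both of these calls were marginal. Each was lost when any 1 of several lungs was left out, with adjusted p up to 0.0641 for Pigr and 0.0707 for Derl3. In Jchain, Mzb1 and Irf4 the 6 day 60 CS lungs were all above their pools, and at day 2 the mean responses were -0.64, -0.30 and -0.43. Pigr rose at both days, by 1.57 at day 60 and 0.85 at day 2. Day, KRasLA1 and the sex of mice in the day 60 pools cannot be told apart.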

How the results depend on the processing

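Over 23 alternatives Jchain (2.69 to 2.96) and Pigr (1.40 to 1.74) stayed higher at day 60 with an adjusted p under 0.05. Several of these could not move the values: each gene has 1 probe set, and leaving out a day 2 lung changes only the spread. Fits without a PBS pool used the arrays of that day alone and return the response of the genotype that kept its pool. Those single-genotype responses are the ends of both ranges. At day 60, 6 of 9 genes were called in mean response. The count was 3 with only genes above the median level, where Irf4, Tnfrsf17 and Derl3 were not tested, and 3 in additive fits that left out either PBS pool. At day 2, 3 were called, 0 if the BLT1+/+ pool was left out and 1 if the BLT1-/- pool was, and 2 to 4 with 1 lung left out. In BLT1-/-KRasLA1 lungs 4 were called, 6 with array weights, where Tnfrsf17 and Derl3 were added, 2 with arrays centred on the median gene, and 2 to 5 with 1 lung left out. In BLT1+/+ lungs at day 2 the count was 1, or 2 with array weights, and 0 to 2 with 1 lung left out. In BLT1-/- lungs at day 2 it was 1, or 3 with array weights, 0 with only the 8 arrays of the day, and 0 to 2 with 1 lung left out. For the difference between days 5 were called, 3 with only genes above the median level, and 3 to 6 with 1 lung left out. These counts are given without the share of all genes called in each setting. The number of all genes called changed widely too, in 62 pairs of comparison and setting. A changed count is therefore not a result about these genes alone. With the replicate block, which pairs same-numbered lungs, 2 genes passed in BLT1+/+ lungs and 3 in BLT1-/- lungs at day 2; beside these, the day 2 mean of Jchain and the day difference of Sdc1, it changed no call. Differences near 0 that had not passed changed sign. Without the BLT1-/- pool these were Prdm1 (-0.16) and Sdc1 (0.06) at day 60 and Tnfrsf17 (0.14) and Derl3 (0.15) at day 2. At day 2 Prdm1 had 0.01 when the BLT1+/+ pool was dropped. With 1 lung left out, day 2 values ran from -0.12 to 0.01 for Prdm1, from -0.07 to 0.01 for Tnfrsf17 and, in BLT1-/- lungs, from -0.27 to 0.07 for Jchain. Beyond what the dropped arrays and genes themselves account for, the cause was not tested. Dim genes such as Tnfrsf17, with unreplicated pools, limit what these arrays can show.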
